A study of Mus musculus with 12 samples.

Results

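The phagocyte NADPH oxidase is described here through 6 of its subunits, Cybb, Cyba, Ncf1, Ncf4, Rac1 and Rac2, which were found by their symbols among the 23847 gene rows of each expression table. Each symbol had 1 row, and all 6 passed the filter on low values, which kept 11191 rows that reached 1 FPKM (fragments per kilobase of transcript, relative to all mapped fragments of the library) in at least 1 sample. The samples were bone marrow-derived macrophages of wild-type mice aged 8 to 12 weeks, on a C57BL/6 background per the methods, that had been differentiated for 6 days in L929 supernatant, a source of the growth factor MCSF. There were 4 groups of 3 samples, all of them wild type. Control cells received neither agent, IL-4 cells received 20 ng/ml IL-4 for 24 h, LPS cells received 100 ng/ml LPS for 3 h, and IL-4+LPS cells were pretreated with the same IL-4 for 24 h before the same LPS for 3 h. The design asks how the response of macrophages to LPS, a bacterial wall component sensed by TLR4, differs after the type 2 cytokine IL-4. The labels give this LPS dose, while the methods give 100 nM. Whether IL-4 was left in the medium during LPS is not given in the sources used here. These are bulk measurements, so fewer cells that carry a transcript and less transcript per cell cannot be told apart.

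In phagocytes the oxidase passes electrons from NADPH across the membrane to oxygen and makes superoxide, which helps to kill ingested microbes. The catalytic protein encoded by Cybb and its partner encoded by Cyba form the membrane flavocytochrome, while the proteins of Ncf1 and Ncf4 wait in the cytosol. On stimulation the cytosolic proteins are phosphorylated and move to the membrane together with an active Rac GTPase, and loss of the catalytic, partner or cytosolic subunits in people causes chronic granulomatous disease.

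Replicate 1 stood apart from replicates 2 and 3 in every group. On the first principal component of the deviations from the group means, which held 28.1% of the within-group variance, the 4 samples numbered 1 scored between 15.5 and 33.3 and the other samples between -18.6 and -4.45. The changes of the 6 subunits in the 4 comparisons and the interaction are therefore also given from a fit on replicates 2 and 3 only. For the other pathway genes described below, all 101 calls of these comparisons were made in the same direction in that fit. Some genes not called over all 12 samples were called there, as Prkcb was in IL-4+LPS against LPS. Relative sequencing depth, read from the spacing of low FPKM values and set to 1 in control replicate 1, ranged from 0.991 to 3.3, and the 4 lowest of the 12 depths were those of replicate 1. All 5 macrophage markers passed 1 FPKM in every sample. Csf1r ranged from 411 to 932 FPKM, Cd68 from 998 to 1880, Adgre1 from 444 to 1190 and Itgam from 122 to 255, while Mertk was lower, from 9.19 to 38.3. The summed FPKM of these markers was 3810 to 4030 in control cells and 2350 to 3170 in the other groups. B cell, T cell and mast cell markers stayed under 1 FPKM, and of the dendritic cell and stromal lists only Zbtb46 (up to 2.83 FPKM) and Pdgfrb (up to 3.47 FPKM) passed it. Of the neutrophil markers, which matter because neutrophils also make this enzyme, 7 of 8 had a row, and 6 reached 1 FPKM. The summed FPKM of these 7 ranged from 325 to 862 with neither agent, from 217 to 406 with IL-4, from 514 to 1040 with LPS and from 431 to 852 with both, was lowest in replicate 1 of every group, and came mostly from S100a8 and S100a9. The granule genes Mpo, Elane, Camp and Ltf together gave 10.3 to 72.6 FPKM, and Cxcr2 did not exceed 0.414. The part of these cells in the results was not tested.

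The test throughout was limma on log2(FPKM + 1), with p-values adjusted over all 11191 rows by the Benjamini-Hochberg method and called at 0.05. After LPS the median row fell by 0.44 on the log2 scale against control, and by 0.41 against IL-4 when IL-4 came first, so LPS changes of the 6 subunits are also given relative to that median. The median shift was -0.05 for IL-4 against control and -0.03 for IL-4+LPS against LPS. Over all rows, 1887 were called higher and 6462 lower with LPS, against 3120 and 4231 after median scaling and 2903 and 4326 after quantile normalization. For LPS after IL-4 these pairs were 1682 and 6474, 2867 and 3748, and 2461 and 4173. The comparisons share groups and are not independent of each other.

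The promoter windows of Cybb and Ncf1 are shown, the first for its several motif matches and the second as another subunit of the complex. The Cybb window was thus picked by its matches, and their part in the response to LPS was not tested. Promoters from RefSeq (build GRCm38.p6) matched 3 of the 6 genes, Cybb, Cyba and Ncf1. The sequences below are the 250 bases before the annotated start, 5′ to 3′ on the coding strand. Capitals mark matches, on either strand, to 5 motifs: the PU.1 and ETS core AGGAAG, STAT6 (TTC, 4 bases, GAA), NF-kB (GGGA, 4 bases, CC), AP-1 (TGA, 1 base, TCA) and IRF (GAAA, 2 bases, GAAA).
Cybb, chrX:9469325-9469574, minus strand: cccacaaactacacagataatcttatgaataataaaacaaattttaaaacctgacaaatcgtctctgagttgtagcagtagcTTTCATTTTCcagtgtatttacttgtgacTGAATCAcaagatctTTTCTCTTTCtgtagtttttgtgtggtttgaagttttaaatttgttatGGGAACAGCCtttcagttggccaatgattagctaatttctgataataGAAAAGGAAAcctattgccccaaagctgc
Ncf1, chr5:134229626-134229875, minus strand: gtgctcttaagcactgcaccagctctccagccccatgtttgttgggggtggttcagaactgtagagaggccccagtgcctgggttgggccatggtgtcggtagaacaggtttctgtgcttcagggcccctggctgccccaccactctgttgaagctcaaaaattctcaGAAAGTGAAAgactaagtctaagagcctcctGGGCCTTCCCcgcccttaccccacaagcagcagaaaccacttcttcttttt
In the Cybb window the IRF motif matched 3 times, as GAAAATGAAA and GAAAGAGAAA on the opposite strand and as GAAAAGGAAA on the coding strand at bases -29 to -20. The AP-1 motif (TGAATCA, which reads as the motif on both strands) lay at -139 to -133 and an NF-kB match at -76 to -67. In the Ncf1 window there was 1 IRF match, GAAAGTGAAA at -82 to -73, and 1 NF-kB match at -51 to -42. The Cyba window, chr8:122432941-122433190, held 1 NF-kB match only. Neither the full AGGAAG word nor the STAT6 motif was found in any of these 3 windows. The shorter GGAA inside that word was not searched for, and it occurs, for example, in the Cybb match GAAAAGGAAA. These windows are therefore not shown to lack sites for PU.1 or other ETS factors. Among 32851 RefSeq promoter windows of this length the IRF motif was present in 2.98%, AP-1 in 6.75%, NF-kB in 17.6%, STAT6 in 5.85% and AGGAAG in 29.5%. A match describes letters and not a bound site.

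Cybb, the gene of the catalytic subunit, lies at chrX:9435252-9469324 on the minus strand (mm10) and changed most among the 6. Its level was 206.5, 173.6 and 161.8 FPKM in the control samples and 101, 67.3 and 68 after IL-4 alone. With LPS alone it reached 659.4, 589 and 618.7, and the combination gave 437.3, 424.7 and 419.3 (replicates 1 to 3). The 4 groups did not overlap, and every group differed from its neighbour in the order LPS, IL-4+LPS, control, IL-4. Against control, LPS raised the mean 3.45-fold, from 180.6 ± 23.2 to 622.4 ± 35.4 FPKM (SD, n = 3), a log2 change of 1.79 ± 0.145 (SE, adjusted p = 1.43e-06) and of 2.23 relative to the median row. IL-4 alone lowered it to 78.7 ± 19.3 FPKM, a log2 change of -1.21 ± 0.145 (adjusted p = 0.000127). Starting from that lower level, LPS after IL-4 raised Cybb 5.42-fold, a log2 change of 2.45 ± 0.145 (adjusted p = 1.9e-07) and of 2.86 relative to the median row.

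The end level in IL-4+LPS cells, 427.1 ± 9.21 FPKM, was below that in LPS cells by 0.54 on the log2 scale (95% interval -0.86 to -0.22, adjusted p = 0.0167). It was above control by 1.24 (adjusted p = 1.83e-05), or 1.33 (8.05e-07) with replicates 2 and 3 only. The larger response to LPS after IL-4 was not called as an interaction, which was 0.67 ± 0.205 (95% interval 0.21 to 1.12, adjusted p = 0.0714). Over replicates 2 and 3 the changes were 1.84, -1.3, 2.62 and -0.52 in the same order, and the interaction was 0.78 (adjusted p = 0.000591). The call against LPS was lost without LPS replicate 1 (adjusted p = 0.0535) or without IL-4+LPS replicate 3 (0.0521), and the interaction was called without IL-4 replicate 1 (0.86, adjusted p = 0.0044). The summed neutrophil markers were likewise highest with LPS and lowest with IL-4, and within every group Cybb was highest in replicate 1, where that sum was lowest. The part of those cells in the Cybb values was not tested.

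**Figure D1:**
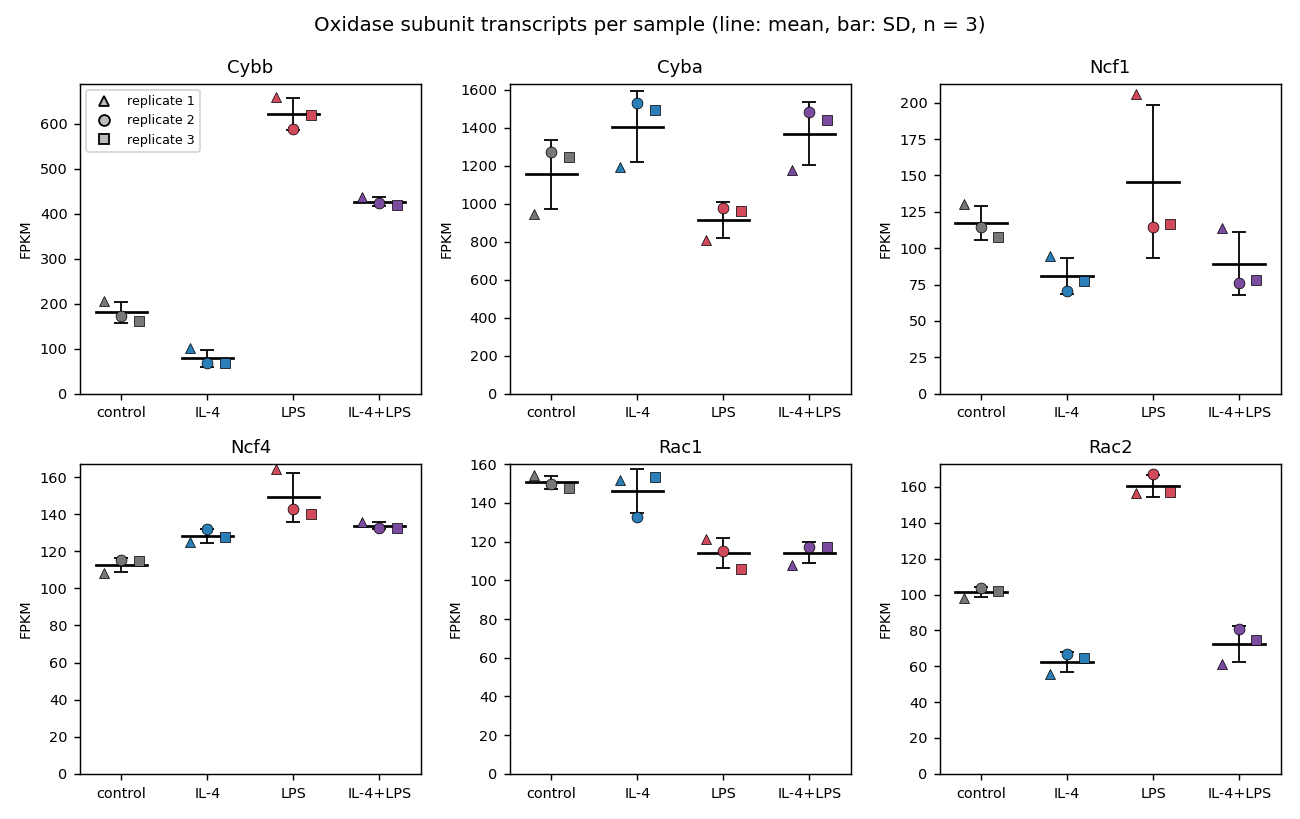
FPKM (vertical axis) of the 6 oxidase subunits in each sample, by group, with the mean as a line and the SD as a bar (n = 3); triangles, circles and squares are replicates 1, 2 and 3. Cybb and Rac2 move most between groups, and replicate 1 is the lowest sample of each group for Cyba and the highest for Ncf1.

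Cyba, the partner that holds the catalytic subunit in the membrane (chr8:122424771-122432940, minus strand), was the most abundant of the 6 in every group. It measured 945.3, 1273 and 1246 FPKM in the control samples and 1191, 1530 and 1496 after IL-4 alone. Samples given only LPS had 807.1, 975 and 960.1, and IL-4 followed by LPS gave 1179, 1485 and 1443. Replicate 1 was the lowest sample of each group, at 75.1% to 83.4% of the mean of the other two. In the order IL-4, IL-4+LPS, control, LPS no neighbours passed the test of the main fit (adjusted p = 0.835, 0.148 and 0.0649), which does not account for the replicate number. With the replicate number as a block in limma, control differed from IL-4+LPS (adjusted p = 0.000315) and from LPS (5.68e-05).

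Cyba was called lower with LPS alone than with IL-4 alone (-0.62 ± 0.148, adjusted p = 0.00313), groups that stand at the ends of that order and did not overlap, a call lost after median scaling (-0.19, adjusted p = 0.266). Between the LPS groups Cyba was 1369 ± 166 FPKM in IL-4+LPS and 914 ± 93 in LPS cells (SD, n = 3), 1.5-fold higher with IL-4, a log2 change of 0.58 ± 0.148 (adjusted p = 0.0131), and the samples of these groups did not overlap. Without IL-4+LPS replicate 2 the adjusted p was 0.0512. The change with LPS alone was -0.33 ± 0.148 (95% interval -0.66 to -0.0011, adjusted p = 0.0649), which is 0.11 above the median row. Its sign depended on scaling, at 0.08 (adjusted p = 0.644) after median scaling and -0.57 (0.00479) after quantile normalization. The change with IL-4 alone was 0.29 (adjusted p = 0.158). After IL-4, the Cyba value with LPS was -0.04 (95% interval -0.36 to 0.29), 0.37 relative to the median row, or 0.38 after median scaling (adjusted p = 0.0406), and the interaction was 0.29 ± 0.209 (95% interval -0.17 to 0.76). When replicate 1 was left out of every group, Cyba was lower with LPS (-0.38, adjusted p = 9.02e-05), higher with IL-4 (0.26, 0.00153) and higher with both agents than with LPS alone (0.6, 5.01e-05), LPS after IL-4 gave -0.05 (0.269), and its interaction was 0.33 (0.00622). With the replicate number as a block, LPS gave -0.33 (adjusted p = 5.68e-05), IL-4 0.29 (0.000465) and IL-4+LPS against LPS 0.58 (8.78e-06). In that fit LPS after IL-4 gave -0.04 (0.406) and the interaction was 0.29 (0.00856).

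Ncf1 encodes the cytosolic organizer that carries the complex to the membrane once phosphorylated (chr5:134220260-134229625, minus strand). Its FPKM was 130.5, 114.3 and 107.8 in the control samples and 94.7, 70.6 and 77.4 after IL-4 alone. The samples with LPS alone held 206.2, 114.3 and 116.7, and both agents gave 114.1, 75.7 and 78.3. Replicate 1 was the highest sample of every group, from 117% of the mean of the other two in control to 179% in LPS. No neighbours passed the test of the main fit in the order LPS, control, IL-4+LPS, IL-4 (adjusted p = 0.334, 0.129 and 0.636). With the replicate number as a block, IL-4+LPS was called lower than control (adjusted p = 0.00831). LPS and IL-4, the ends of that order, differed by 0.8 on the log2 scale (adjusted p = 0.00951, or 0.06 by a Tukey test on this gene alone).

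In the main comparisons Ncf1 passed no test. The change with LPS was 0.26 ± 0.231 (95% interval -0.26 to 0.77, adjusted p = 0.334), or 0.7 relative to the median row, it was 0.66 and called after median scaling (adjusted p = 0.0266), and without LPS replicate 1 it was -0.02. The difference between IL-4+LPS and LPS cells was -0.67 ± 0.231 (95% interval -1.18 to -0.16, adjusted p = 0.0503), with no overlap of samples. This p stood at the threshold, and the difference was called with a pseudocount of 0.1 (0.0468), with a filter of 1 FPKM in 3 samples (0.0471), after median scaling (0.046), and without LPS replicate 2 (0.041), LPS replicate 3 (0.048) or IL-4+LPS replicate 1 (0.0202). It was also called with the replicate number as a block (0.00167). It was not called with no filter, after quantile normalization (0.0609), when only the compared groups were fitted (0.146), or without LPS replicate 1 (0.148), IL-4+LPS replicate 2 (0.156) or IL-4+LPS replicate 3 (0.149), among others. IL-4 alone gave -0.54 ± 0.231 (adjusted p = 0.0944), again with no overlap. It was called with the replicate number as a block (0.00456), when only the compared groups were fitted (0.0219) or without LPS replicate 1 (0.0261). LPS after IL-4 gave 0.13 ± 0.231 (95% interval -0.39 to 0.64), 0.53 relative to the median row, or 0.06 with replicates 2 and 3 only. For LPS, IL-4+LPS against LPS, and IL-4 alone, replicates 2 and 3 gave 0.06 (0.378), -0.58 (0.000305) and -0.58 (0.000294), so both differences tied to IL-4 were called lower there. The interaction in that fit was 0.0012 (adjusted p = 0.994), against -0.13 ± 0.327 over all samples.

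Ncf4, whose protein binds a phosphoinositide of the phagosome membrane (chr15:78244811-78262580, plus strand), varied little in level. It was 108.4, 115.1 and 114.7 FPKM in the control samples and 124.9, 132.1 and 127.7 after IL-4 alone. LPS alone gave 164.3, 142.7 and 140.1, and the combination gave 135.9, 132.8 and 132.8. All groups were separate, although their means spanned 112.7 to 149 FPKM only. LPS against control was called, with a log2 change of 0.4 ± 0.067 (adjusted p = 0.000297), or 0.84 relative to the median row. IL-4 against control was 0.18 ± 0.067 (adjusted p = 0.0523), LPS after IL-4 was 0.06 (0.423), 0.47 relative to the median row, and IL-4+LPS against LPS -0.15 (0.119). The interaction was -0.33 ± 0.095 (95% interval -0.54 to -0.13, adjusted p = 0.0528). With replicates 2 and 3 only, LPS gave 0.3 (0.000198), IL-4 0.18 (0.00593) and the interaction -0.26 (0.0105), all called, while LPS after IL-4 was 0.03 (0.412) and IL-4+LPS against LPS -0.09 (0.0724). After IL-4 the sign of the LPS change depended on scaling, at 0.48 (6.74e-05) with median scaling and -0.04 (0.677) with quantile normalization.

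Rac1 and Rac2 encode closely related GTPases that switch the assembled oxidase on. Rac2 is largely restricted to blood cells and Rac1 is made in most cells. At chr5:143505481-143527993 (minus strand), Rac1 measured 154.2, 149.8 and 147.8 FPKM in the control samples and 151.9, 132.9 and 153.5 after IL-4 alone. With LPS alone it reached 121.2, 115.2 and 105.7, and IL-4 followed by LPS gave 108, 117.3 and 117.4. The groups without LPS overlapped each other, as did those with LPS, and no sample with LPS reached a sample without it. Rac1 was lower with LPS by log2 -0.4 ± 0.0749 (adjusted p = 0.000603) and lower with LPS after IL-4 by -0.35 ± 0.0749 (0.00163). Relative to the median row these changes were 0.04 and 0.06, and after median scaling they were 0.01 (adjusted p = 0.956) and 0.07 (0.505), so the direction was not kept under median scaling, while it was under quantile normalization. IL-4 made no called difference to Rac1, either alone (-0.05, 95% interval -0.21 to 0.12) or between the LPS groups (0.0041, 95% interval -0.16 to 0.17). With replicates 2 and 3 only, the LPS changes were -0.43 (0.00152) and -0.28 (0.0111), IL-4 gave -0.06 and IL-4+LPS against LPS 0.09. The interaction was 0.05 ± 0.106 (95% interval -0.18 to 0.29), or 0.15 with replicates 2 and 3 only.

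Rac2, at chr15:78559169-78572783 (minus strand), was called higher with LPS and lower with IL-4. It measured 98.1, 103.7 and 101.7 FPKM in the control samples and 56, 66.8 and 64.6 after IL-4 alone. Samples given only LPS had 156.9, 167.3 and 157.3, and both agents gave 61.3, 81 and 74.7. Every LPS sample lay above every other sample, and the IL-4 and IL-4+LPS samples overlapped. LPS raised the mean from 101.2 ± 2.84 to 160.5 ± 5.89 FPKM (SD, n = 3), a log2 change of 0.66 ± 0.101 (adjusted p = 0.000141) and of 1.1 relative to the median row. IL-4 lowered it to 62.5 ± 5.72 FPKM, a log2 change of -0.69 ± 0.101 (adjusted p = 0.000442).

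After IL-4, LPS left Rac2 at 72.3 ± 10.1 FPKM, a change of 0.2 ± 0.101 from IL-4 alone (95% interval -0.02 to 0.43, adjusted p = 0.0907), 0.61 relative to the median row. This was 2.22-fold below LPS alone, a log2 difference of -1.15 ± 0.101 (adjusted p = 1.38e-05). The IL-4+LPS level was below control by 0.49 (adjusted p = 0.00115), but by only 0.09 (0.459) after median scaling. The interaction was -0.46 ± 0.142 (95% interval -0.77 to -0.14, adjusted p = 0.0738), and it was called without IL-4 replicate 1 (-0.53, 0.0448) or without IL-4+LPS replicate 2 (-0.54, 0.0445). Without the samples numbered 1, LPS gave 0.65, IL-4 -0.64, IL-4+LPS against LPS -1.05 and LPS after IL-4 0.24 (0.00509), and the interaction was -0.41 (0.0105). LPS after IL-4 was also called after median scaling (0.62, adjusted p = 0.000461). Rac2 was lowest in replicate 1 of every group, as the summed neutrophil markers were, and the part of those cells was not tested.

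Shared sequence and overlapping genes were checked for each row. Of the 50-base words in the longest GENCODE M21 transcript, 0.502% for Rac2 and 0.247% for Ncf1 occurred in transcripts of other genes, and none did for Cybb, Cyba, Ncf4 or Rac1, so Rac1 and Rac2 shared no such word. Ncf1 overlaps Gtf2ird2 and Rac1 overlaps Daglb, each on the opposite strand, and the library kit kept no strand. Gtf2ird2 ranged from 0.684 to 2.09 FPKM and Daglb from 58.6 to 62.4 in control, 127 to 146 in IL-4, 11.8 to 13.9 in LPS and 27.3 to 35.6 in the doubly treated samples. Daglb was lower with LPS, as Rac1 was. It was higher with IL-4, alone and before LPS, where Rac1 had no called change (-0.05 and 0.0041). Whether reads of Daglb entered the Rac1 row was not tested. Cyba overlaps the gene model Gm20388.

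LPS raised Cybb, Rac2 and Ncf4 and lowered Rac1, which is 3 of 6 members higher, where 16.9% of all rows were called higher, and 1 of 6 lower, where 57.7% were. Cyba and Ncf1 were not called. The median change of the members was 0.33 and that of all rows -0.44. Over replicates 2 and 3 alone, 3 were higher and 2 lower, where 19.5% and 62.8% of all rows were, Cyba being added, as it also was without control replicate 1 (-0.47) or without IL-4 replicate 1 (-0.33).

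IL-4 alone lowered Cybb and Rac2, 2 of 6 members, where 21.0% of all rows were called lower, and raised none of 6, where 16.0% were called higher. At an unadjusted p under 0.05, Ncf1 would join the lower and Ncf4 the higher genes. Ncf4 was called higher by a Tukey test on this gene alone and by limma without LPS replicate 1 (adjusted p = 0.0173), a fit that also called Ncf1 lower (0.0261), as did the fit on the compared groups only (0.0219). With replicates 2 and 3 only, 2 members were higher (Cyba, Ncf4) and 3 lower (Cybb, Rac2, Ncf1), where 21.5% and 29.4% of all rows were. The median change of the members was -0.29, beside -0.05 over all rows.

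LPS after IL-4 raised Cybb alone, 1 of 6 where 15.0% of rows were called higher, and lowered Rac1 alone, 1 of 6 where 57.9% were called lower. Cyba, Ncf1, Ncf4 and Rac2 were not called. Without IL-4+LPS replicate 1, Rac2 was also higher (0.32, adjusted p = 0.00639), as it was with replicates 2 and 3 only, where 2 members were higher and 1 lower, beside 17.4% and 63.8% of all rows. After median scaling 4 members were higher, namely Cybb, Cyba, Ncf4 and Rac2, and none was lower, where 25.6% and 33.5% of all rows were.

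Between the LPS groups, pretreatment with IL-4 left Cyba higher, 1 of 6 where 15.0% of rows were, and Cybb and Rac2 lower, 2 of 6 where 15.8% were. The median change of the 6 members was -0.35, beside -0.03 over all rows. The count of lower members was 1 without LPS replicate 1 or IL-4+LPS replicate 3, and that of higher members was 0 without IL-4+LPS replicate 2. Shares of all rows are not given for these fits, so these counts have no background beside them. With replicates 2 and 3 only, 1 member was higher and 3 were lower, where 21.0% and 25.9% of all rows were, Ncf1 being added. No member passed the interaction test in the main limma fit, for which 4.58% of all rows were called higher and 4.63% lower. With the replicate number as a block, Cybb (adjusted p = 0.0137) and Cyba (0.00856) were called higher, and Ncf4 (0.0322) and Rac2 (0.0113) lower. In that fit 10.2% of all rows were called higher and 9.78% lower. Ncf4 was also called lower with no filter (0.0471) and after median scaling (0.0436), where 3.32% and 4.55% of all rows were. At an unadjusted p under 0.05 the interaction would take in Cybb as higher and Ncf4 and Rac2 as lower. Leaving out IL-4 replicate 1 brought calls for Cybb and Rac2, and leaving out IL-4+LPS replicate 2 one for Rac2. With replicates 2 and 3 only, 2 members had a called positive interaction (Cybb, Cyba) and 2 a negative one (Ncf4, Rac2), where 13.2% and 12.4% of all rows did.

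**Figure D2:**
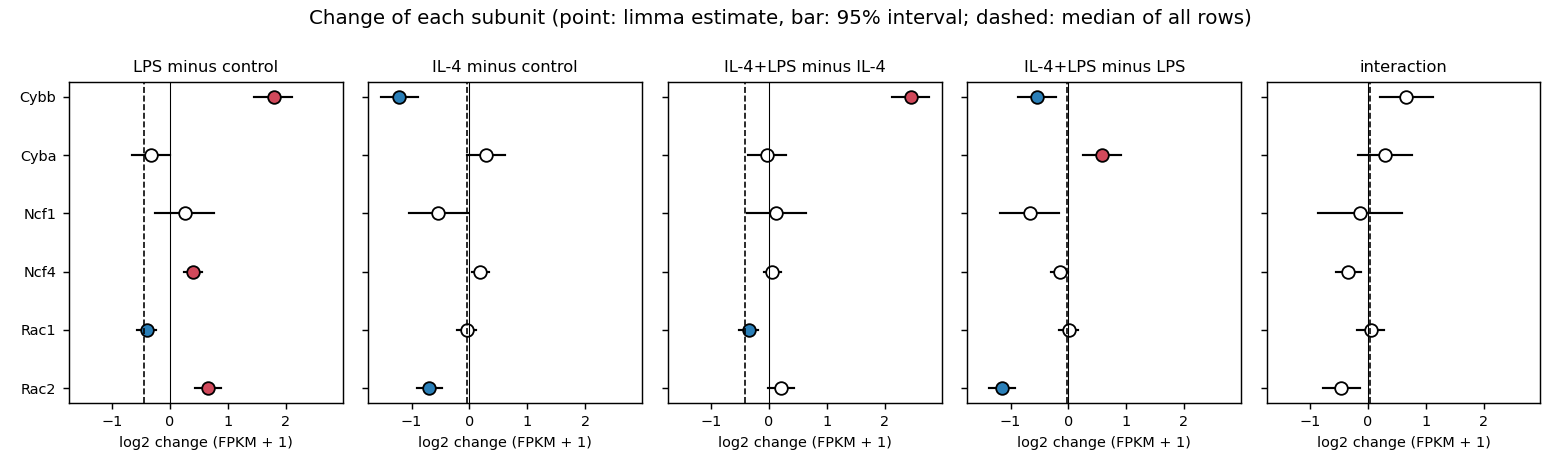
log2 change in FPKM + 1 (horizontal axis) of each subunit in the 4 comparisons and the interaction, with the 95% interval as a bar and the median of all rows as a dashed line; red and blue points were called higher and lower, white points were not called. Cybb has the largest change with LPS, 1.79 alone and 2.45 after IL-4, and Rac2 the largest between the LPS groups, -1.15.

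Ratios within a sample do not change when all its values are multiplied by 1 factor, as in median scaling, but can change under quantile normalization. They are given as a description with no test. The flavocytochrome needs both of its chains, and the ratio of Cybb to Cyba FPKM was 0.218, 0.136 and 0.13 in control and 0.0848, 0.044 and 0.0454 in IL-4 samples. It reached 0.817, 0.604 and 0.644 in LPS and 0.371, 0.286 and 0.291 in IL-4+LPS samples. The 4 groups did not overlap, and replicate 1 was the highest of each. Cyba thus remained in excess as FPKM in all 12 samples, least so with LPS alone.

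The ratio of Rac2 to Rac1 was 0.636, 0.692 and 0.688 in control and 0.368, 0.503 and 0.421 in IL-4 samples. It was 1.29, 1.45 and 1.49 in LPS and 0.567, 0.69 and 0.636 in IL-4+LPS samples. Rac2 exceeded Rac1 as FPKM only in the LPS samples, in all 3 of them, and the IL-4+LPS samples overlapped the control samples. The ratio of Ncf4 to Ncf1, chosen after the values were seen, averaged 0.967 ± 0.121 with neither agent, 1.61 ± 0.277 with IL-4, 1.08 ± 0.249 with LPS and 1.55 ± 0.31 with both (SD, n = 3). The LPS samples reached 1.25 and the IL-4+LPS samples went down to 1.19, so these groups overlapped.

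**Figure D3:**
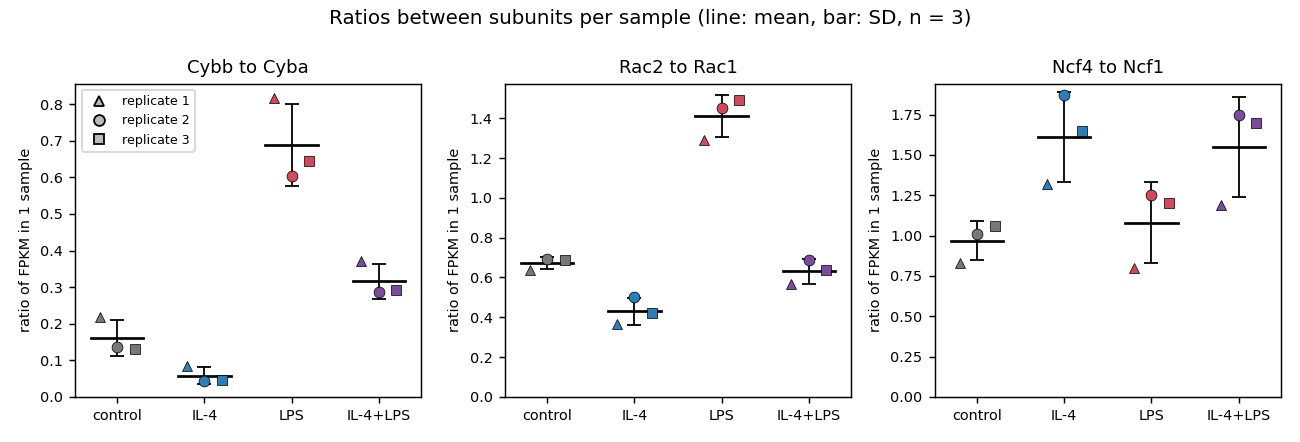
Ratio of FPKM within a sample (vertical axis) for Cybb to Cyba, Rac2 to Rac1 and Ncf4 to Ncf1, by group, with the mean as a line and the SD as a bar (n = 3); triangles, circles and squares are replicates 1, 2 and 3. The LPS samples are highest for the first and second ratios, at means of 0.688 and 1.41.

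Of the further parts of the oxidase, Cybc1 was lower with LPS and Hvcn1 was higher. BC017643, an older symbol of Cybc1, whose protein helps the flavocytochrome chains to mature, fell from 36.7 in control to 20.2 with LPS (log2 -0.82, adjusted p = 2.17e-05) and stood at 13 FPKM in IL-4+LPS cells (-0.61 against LPS, adjusted p = 0.000884). Hvcn1, a proton channel that offsets the charge the enzyme moves, rose with each agent, from 79.2 in control to 174 with IL-4, 120 with LPS and 265 FPKM in IL-4+LPS cells (1.13 against LPS, adjusted p = 3.71e-06). Rap1a, a small GTPase found with the flavocytochrome, averaged 41.5 FPKM with neither agent, 43.8 with IL-4, 37.7 with LPS and 29.5 with both. Among the 4 comparisons of the main fit it was called only as lower with LPS after IL-4 (-0.57, adjusted p = 0.0142), a call lost after median scaling (-0.16, 0.466). Between the LPS groups Rap1a was not called in the main fit (-0.355, 0.16). It was called lower there with replicates 2 and 3 only (-0.434, 0.0223) and with the replicate number as a block (-0.355, 0.00209).

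Over all rows, 16.9% were called higher and 57.7% lower with LPS, 16.0% and 21.0% with IL-4, 15.0% and 57.9% with LPS after IL-4, and 15.0% and 15.8% between the LPS groups, and the list counts that follow stand beside these shares. Of these 3 genes, 1 was called higher and 1 lower with LPS, with IL-4 and between the LPS groups, and 1 higher and 2 lower with LPS after IL-4. No interaction was called in the main limma fit for these genes (adjusted p from 0.351 to 0.987). With the replicate number as a block, the interaction of Rap1a was called lower (-0.42, adjusted p = 0.0129), where 9.78% of all rows were. For BC017643 and Hvcn1 the calls and directions of the main fit held after median scaling, after quantile normalization and with replicates 2 and 3 only. The Cybb response to LPS thus stood beside lower BC017643 in the same cells, with and without IL-4.

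**Figure D4:**
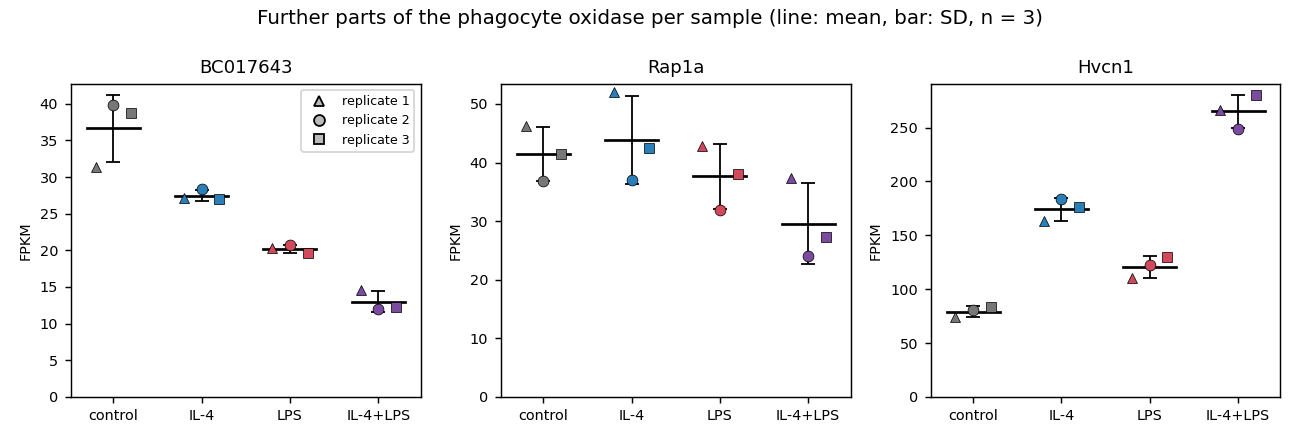
FPKM (vertical axis) of BC017643 (Cybc1), Rap1a and Hvcn1 in each sample by group, with the mean as a line and the SD as a bar (n = 3); triangles, circles and squares are replicates 1, 2 and 3. BC017643 is lowest in IL-4+LPS samples, at a mean of 13 FPKM, where Hvcn1 is highest, at 265 FPKM.

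Of 9 genes for other NOX enzymes and their partners, 1 reached 1 FPKM, Nox1, a catalytic homologue best known from the colon. It was 5.3, 7.35 and 8.08 FPKM in LPS and 0.169, 0.485 and 0.793 in IL-4+LPS samples, and did not exceed 0.125 in control or IL-4 samples. LPS raised it (2.81, adjusted p = 1.36e-07), IL-4 before LPS left it lower than LPS alone did (-2.42, 2.18e-06), and its interaction was called (-2.34, 0.000241). Against Cybb in the same LPS cells, at 622.4 FPKM, Nox1 averaged 6.91 FPKM.

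Among 10 regulators of the Rac switch, all kept, LPS raised 2 and lowered 4, where 16.9% and 57.7% of all rows were called, and the median change was -0.12, beside -0.44 over all rows. Arhgap25, which turns Rac off, fell by 4.72 (adjusted p = 1.07e-05), from 110 to 3.45 FPKM, and Vav2 fell by 1.59, while Vav3, an exchange factor that turns Rac on, rose by 1.17 (3.09e-05) and Tiam1 by 0.66. Between the LPS groups 2 were higher and 5 lower with IL-4. Vav1, the exchange factor of blood cells, was lower (-1.42, adjusted p = 1.53e-05), as Rac2 was, and Tiam1 was lower (-1, 0.00284), while Vav3 (0.82, 0.00164) and Dock2 (0.66, 0.000123) were higher. The 2 further genes called lower with LPS, Dock2 and Arhgdib, lost that call after median scaling, where Arhgdib changed sign (0.09) and Vav1 (0.64, adjusted p = 0.000568) and Arhgdia (0.43, 0.0448) were called higher.

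Of 12 kinases and lipid enzymes that activate the oxidase, 11 were kept, and LPS raised 4 and lowered 4, where 16.9% and 57.7% of all rows were called (median 0.16). After median scaling Prkcb lost its lower call (-0.28, adjusted p = 0.299), and Mapk14 (0.59, 0.000175) and Pak2 (0.56, 2.69e-05) were called higher. Pla2g4a, a phospholipase that releases arachidonate (1.7, adjusted p = 2.76e-07), and Syk, a kinase downstream of Fc receptors (1.42, 2.09e-07), rose most, and Pak1 (-1.38) and Pik3c3 (-1.09) fell most. Between the LPS groups Prkcd, a kinase of the Ncf1 protein, was higher with IL-4 (0.74, adjusted p = 0.000203) and Pik3cg lower (-1.05, 0.00497), and the other 9 were not called. Of 8 enzymes that remove superoxide and peroxide, 7 were kept. LPS raised the mitochondrial Sod2 from 15.7 to 346 FPKM (4.37, adjusted p = 3.22e-09) and Prdx5 (1.63), and lowered Cat (-0.85), Gpx1 (-0.83), Sod1 (-0.66) and Prdx6 (-0.31), of which Gpx1 lost its call (-0.43, adjusted p = 0.247) and Prdx6 turned to 0.09 after median scaling, where Prdx1 was called higher (0.48, 0.0328). Between the LPS groups Gpx1 was higher with IL-4 (0.91, adjusted p = 0.0479, but 0.0513 after quantile normalization), and Cat (-0.59), Sod2 (-0.55) and Sod1 (-0.5) were lower. For Gpx1 the adjusted p was 1.02e-05 with replicates 2 and 3 only and 5.74e-07 with the replicate number as a block.

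Of 6 transcription factors known to act on oxidase genes, 5 had a row under the symbols searched, and all 5 were kept. Spi1, the gene of PU.1, had none under those symbols, which does not show that it was not expressed. LPS raised Irf1 from 39.7 to 474 FPKM (3.56, adjusted p = 1.55e-08) and lowered Irf8 (-1.29), Elf1 (-0.92) and Runx1 (-0.42), the last of which lost its call after median scaling (-0.05, adjusted p = 0.61). Irf8, a factor of the macrophage lineage known to act at the Cybb promoter, was 33.4, 31.3 and 31.2 FPKM in LPS and 132, 205 and 200 in IL-4+LPS samples, with control between 75.7 and 86.4 and IL-4 between 43.1 and 54.3. The LPS groups did not overlap, with a log2 difference of 2.43 (adjusted p = 1.57e-06) and an interaction of 3.16 (2.62e-05). Irf1 was also higher with both agents than with LPS alone (0.8, adjusted p = 0.00235), and Runx1 was lower (-1.2, 2.79e-06).

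Group means of Cybb and Rac2 spanned 2.99 and 1.35 on the log2 scale, and those of the other 4 subunits 0.4 to 0.8. For the first pair, the genes whose log2 values ran closest over the 12 samples were named by Pearson's r among 4951 genes whose own means spanned at least 1. For Cybb they were Parp8 (r = 0.994, Spearman's rho = 0.965), Ms4a4c (0.994, 0.986) and Mmp9 (0.992, 0.979), and for Rac2 they were Pid1 (0.984, 0.923), Blmh (0.98, 0.986) and Ebi3 (0.977, 0.965). The 12 points share 4 group means, so r describes the order of the groups above all. Ebi3 averaged 69.6 FPKM with neither agent, 16.3 with IL-4, 216 with LPS and 40.3 with both. Mmp9 averaged 3.63, 0.842, 15.7 and 8.92 FPKM in that order of groups.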

How the data were processed

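Poly-A RNA of 12 samples was sequenced. Per the submitters' processing notes and the methods, the authors mapped paired reads to mm10 with TopHat2 2.0.7 and obtained FPKM per gene with Cufflinks 2.0.2; the annotation is not given in the sources used here. The deposited FPKM values (summing to 457583 to 495025 per sample) scale each library to its own total, so a change in a few abundant genes moves all others, and fragment counts were not analysed here. Replicates are separate samples per the labels; a figure legend of the study mentions individual animals and independent experiments, but no source used here ties a number to either.

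Rows with at least 1 FPKM in at least 1 sample were tested with limma 3.58.1 (R 4.3.3; intensity trend) on log2(FPKM + 1), which understates changes of low genes, in 1 group-means model over all 12 samples, with Benjamini-Hochberg adjustment within each comparison. The interaction is (IL-4+LPS minus IL-4) minus (LPS minus control). The procedure was tested on simulated data. Numbers were not taken to pair the samples in the main fit, since no source used here ties a number to a shared animal. Deviations from group means correlated at 0.124 on average over 18 same-numbered pairs, 11 of them above 0.1. Replicate 1 nevertheless stood apart in all 4 groups, and the main fit leaves that difference in its spread. Absence of a call in the main fit can therefore depend on this choice. With the replicate number as a block, the adjusted p of Cyba with LPS went from 0.0649 to 5.68e-05. Alternatives changed the pseudocount, filter, scaling, variance model, samples and replicate block. Named genes were the 6 subunits, the further oxidase parts, listed pathway genes past the threshold for LPS against control or IL-4+LPS against LPS, led by the largest changes, and the 3 genes most correlated with each subunit whose group means spanned at least 1. A listed gene is not reported here. The members and lists were chosen with earlier results of these data known. Figures were drawn with matplotlib 3.10.9.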

Additional observations from a re-analysis of the deposited data

How the results depend on the processing

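Of 912 member changes recomputed under an alternative, 830 kept their direction and their side of the threshold. After median scaling no member was lower with LPS (0) or with LPS after IL-4 (0), where 37.8% and 33.5% of all rows were. There 4 were higher with LPS and 4 with LPS after IL-4, where 27.9% and 25.6% of all rows were. In the same fit 3 were lower between the LPS groups and 1 had a lower interaction, beside 17.1% and 4.55% of all rows. After quantile normalization 2 were lower with LPS, where 38.7% of all rows were. The main fit had no replicate block, since no source used here ties a replicate number to a shared animal. With the replicate block 2 members were lower with LPS, where 62.7% of all rows were. With IL-4, 2 were higher and 3 lower in that fit (21.5% and 28.4% of all rows). Between the LPS groups 3 were lower (23.8%), and 2 were higher with LPS after IL-4 (17.2%). The interaction was higher for 2 and lower for 2 (10.2% and 9.78%). The fit on replicates 2 and 3 only gave the same counts of members, beside the shares given above. With no filter 1 was higher with IL-4 and 1 had a lower interaction, beside 11.2% and 3.32% of all rows. With only the compared groups or the per-gene Tukey test 1 was higher with IL-4. In the fit on the compared groups 3 were lower with IL-4, and 15.9% of all rows were higher and 21.6% lower. Requiring a 2-fold change left 1 higher and 0 lower with LPS, 1 lower with IL-4, 0 lower with LPS after IL-4, and 0 higher and 1 lower between the LPS groups. The share of all rows under the 2-fold rule was not computed, so these counts have no background beside them. Changes of single members that turned sign were, after median scaling, Cyba with LPS (0.08), Cyba with LPS after IL-4 (0.382), and Rac1 with LPS (0.00596), with LPS after IL-4 (0.0663), between the LPS groups (-0.00302), and in IL-4+LPS against control (0.00294) and LPS against IL-4 (0.0693). After quantile normalization they were Cyba in IL-4+LPS against control (-0.122), Ncf4 with LPS after IL-4 (-0.0362) and Rac1 between the LPS groups (-0.0487), and with replicates 2 and 3 only the Ncf1 interaction (0.0012). Leaving out 1 sample moved Cyba with LPS after IL-4 from -0.152 to 0.0673, Ncf1 with LPS from -0.0212 to 0.402, Ncf1 with LPS after IL-4 from -0.0607 to 0.244, the Ncf1 interaction from -0.317 to 0.148, Rac1 with IL-4 from -0.0836 to 0.0197, Rac1 between the LPS groups from -0.0491 to 0.0488 and the Rac1 interaction from -0.0156 to 0.0955. Over these 12 fits, 1 to 2 members were lower with LPS, 0 to 1 higher and 2 to 3 lower with IL-4, 1 to 2 higher with LPS after IL-4, 0 to 1 higher and 1 to 3 lower between the LPS groups, and 0 to 1 in each direction for the interaction. Shares of all rows are not given for these 12 fits. The cause of these differences was not tested. FPKM carries no counts, so counting error could not be given.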
